A study of Ovis aries with 6 samples.

Results

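The proteasome is the barrel-shaped protease that degrades ubiquitin-tagged proteins, and in skeletal muscle it carries out much of the turnover of contractile proteins. Its genes were described here in the longissimus dorsi, the long muscle of the back, of sheep from a pair of breeds, the Qianhua Mutton Merino (QHMM) and the Small Tail Han (STH). Members were all rows of the deposited gene table whose symbol began with PSMA to PSMG and a digit, which gave 47 of 23144 genes. PSMC3IP was matched by its letters only, since the file describes it as a homologous-pairing protein, and with fewer than 10 normalized counts in each library it was set aside. The other 46 were 8 alpha (PSMA) and 11 beta (PSMB) subunits of the core, 6 ATPases (PSMC) and 14 other genes (PSMD) of the cap, 4 activators (PSME), the inhibitor PSMF1 and the assembly chaperones PSMG1 and PSMG3. Of these, 44 passed the filter for low counts. PSMA8, a core subunit known from the testis, had no read in any library, and PSMB11, the beta subunit of the thymus, had 1 read in QHMM replicate 1 and none in the other libraries.

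Each breed was represented by 3 libraries, 1 per animal, from females aged 1 year that shared their housing and feeding conditions. The breeds are the only groups, the labels give no treatment, and each fold change is given for STH relative to QHMM. Poly(A)-containing RNA was read on an Ion Proton instrument, and 10982191 to 14334544 reads per library were counted on genes. Skeletal muscle genes were abundant in every library, with ACTA1 (skeletal muscle alpha-actin) taking 5.02% to 10.2% of the counts, although TNNT3, one of the muscle markers, had no read in any library.

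The core is a stack of rings in which the outer alpha subunits form the gate and the inner beta subunits hold the active sites. PSMB5, PSMB6 and PSMB7 carry the catalytic sites of the standard core, and PSMB8, PSMB9 and PSMB10 replace them in the immunoproteasome, which interferon-gamma induces and which is abundant in immune cells. The cap that docks on the gate has a base, in which a ring of PSMC ATPases unfolds the substrate, and a lid of PSMD subunits, among which PSMD14 removes the ubiquitin chain. PSME proteins open the gate without ATP, and PSMG proteins guide the assembly of the core. Because bulk muscle was sequenced, fewer cells of a type and less RNA per cell cannot be told apart.

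Levels of different genes were compared as RPKM, the reads of a gene scaled to its length and to the library total. The mean RPKM over the 6 libraries ranged from 3.53 for PSMD10 to 231 for PSMC1, a ratio of 65.5 among the 44 genes. At the top the breeds differed in order, since PSMB6 had 232 in QHMM and 231 in STH, and PSMC1 had 161 and 302. In the finished core, each of the 14 constitutive alpha and beta subunits is present in the same number of copies, but their mean RPKM ranged from 14.4 (PSMA4) to 231 (PSMB6). All 7 constitutive beta subunits had a mean RPKM of at least 76.7, while the highest alpha subunit, PSMA7, reached 87.1 and the next, PSMA6, 66.0. In QHMM the lowest of them, PSMB2 with 63.2, lay just above PSMA7 with 60.4, but in STH PSMA7, with 114, exceeded PSMB2, PSMB5 and PSMB7. Among the ATPases, PSMC6 had a mean RPKM of 13.3 while the other 5 lay between 77.2 (PSMC2) and the value of PSMC1. PSMD4, a receptor for ubiquitin chains in the base of the cap, had the highest level of the PSMD genes, with 197. Over the 6 libraries the lowest levels of that family were those of PSMD5, PSMD9 and PSMD10, with 10.1, 7.75 and 3.53 RPKM. Despite their names these are chaperones of base assembly that are not kept in the finished cap. In QHMM alone PSMD12 and PSMD14 had lower means than PSMD5. Across the 44 genes the order of the levels was much alike in both breeds, with a Spearman's rho of 0.952 between the mean RPKM of QHMM and STH. This is a description across genes of the same 6 libraries, and genes are not independent replicates.

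**Figure D1:**
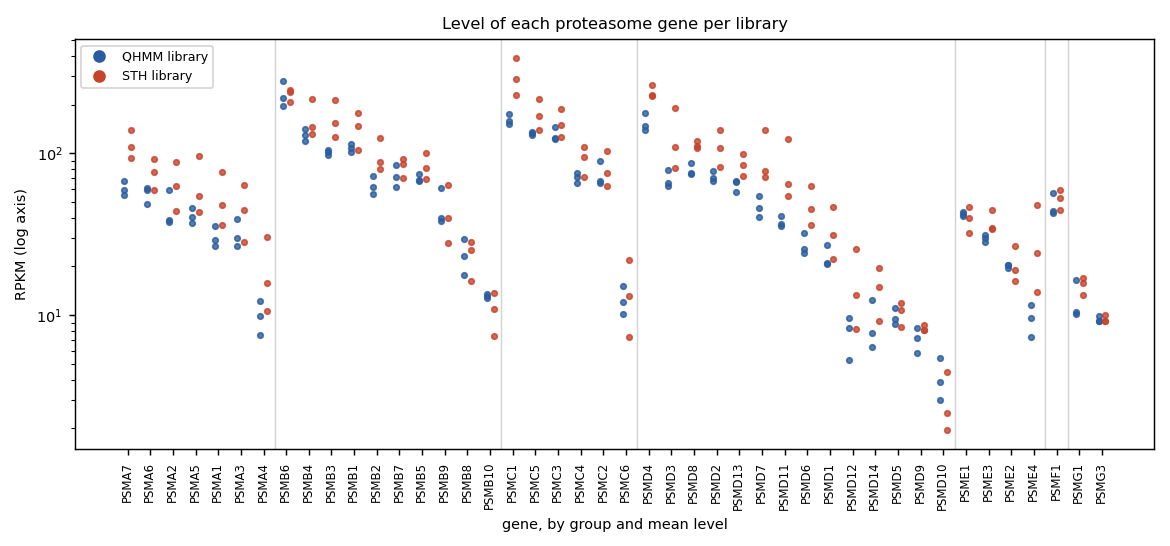
RPKM (log axis) of the 44 proteasome genes that passed the filter, 1 point per library, with QHMM in blue and STH in red. Genes are ordered within the groups alpha core, beta core, ATPase cap, non-ATPase cap, activator, inhibitor and assembly, which vertical lines separate, and the mean levels run from 3.53 (PSMD10) to 231 RPKM (PSMC1).

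Summed over the 46 genes, the level was 2351, 2503 and 2646 RPKM in QHMM replicates 1, 2 and 3 and 3354, 4328 and 2769.5 RPKM in the STH replicates. STH replicate 2 was the highest, and STH replicate 3 lay closest to QHMM. The alpha core sum was 275 ± 39.3 RPKM in QHMM (mean ± SD, n = 3) and 437 ± 137 in STH (n = 3), and the beta core sum was 860.3 ± 67.1 and 1044 ± 197. The ATPase sum was 582 ± 22.6 RPKM in QHMM and 817 ± 195 in STH, and that of the other cap genes was 611 ± 34.7 and 982 ± 233. The SD within STH exceeded that within QHMM for each of these 4 sums. For the activators the sums were 102 ± 3.80 and 127 ± 25.3 RPKM, and for the assembly chaperones 21.9 ± 3.32 and 24.9 ± 1.47. RPKM is not adjusted for the composition of a library. After division by the composition factors of edgeR's TMM method, the sums over the 46 genes in QHMM were 2324, 2939 and 2569, and those in STH were 2802, 3923 and 3247, so that STH replicate 1 no longer lay above all QHMM libraries.

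The breeds were then compared gene by gene on TMM-normalized counts. PSME4, the activator that caps the core and is known for a part in the degradation of acetylated histones, was the only one of the 44 genes that edgeR's quasi-likelihood test called, where a call needs an FDR below 0.05 over all 12506 tested genes and a change of more than 1.5-fold. In QHMM replicates 1, 2 and 3 its normalized count was 861, 784 and 1022, and in the STH replicates it was 1836, 3963 and 1489. Every STH library lay above every QHMM library, and STH replicate 2 had more than both other STH libraries together. The mean went from 889 ± 121 to 2429 ± 1339 (SD, n = 3 each), or on the log2 scale 1.45 (FDR = 0.0498, SE 0.35), a rise of 2.73-fold. The FDR was just under the threshold. Without STH replicate 2 the log2 fold change was 0.88 with an FDR of 0.116, and with any 1 library left out it lay between 0.88 and 1.71. Over all tested genes 3.45% were called in either direction with 1.62% higher and 1.83% lower in STH, so that 1 call among 44 genes is close to the background.

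Before adjustment, 12 of the 44 genes (27.3%) had a p-value below 0.05 with higher counts in STH and 0 with lower counts, where the background over all tested genes is 9.43% and 9.72%, or 19.2% in either direction. These were PSMA1, PSMA4 and PSMA7 of the alpha ring, PSMB2 and PSMB3 of the beta ring, the ATPase PSMC1, PSMD3, PSMD6, PSMD7, PSMD11 and PSMD12 of the lid, and PSME4. The log2 fold change was above 0 in 33 of the 44 genes (75.0%), against 51.8% of all tested genes, and its median was 0.28 against 0.02. The STH libraries all lay above the QHMM libraries for 13 genes (29.5%), against a background of 13.0%, and all below for 2 genes (4.55%), against 11.7%. The gene-by-gene plot shows the order within each group.

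**Figure D2:**
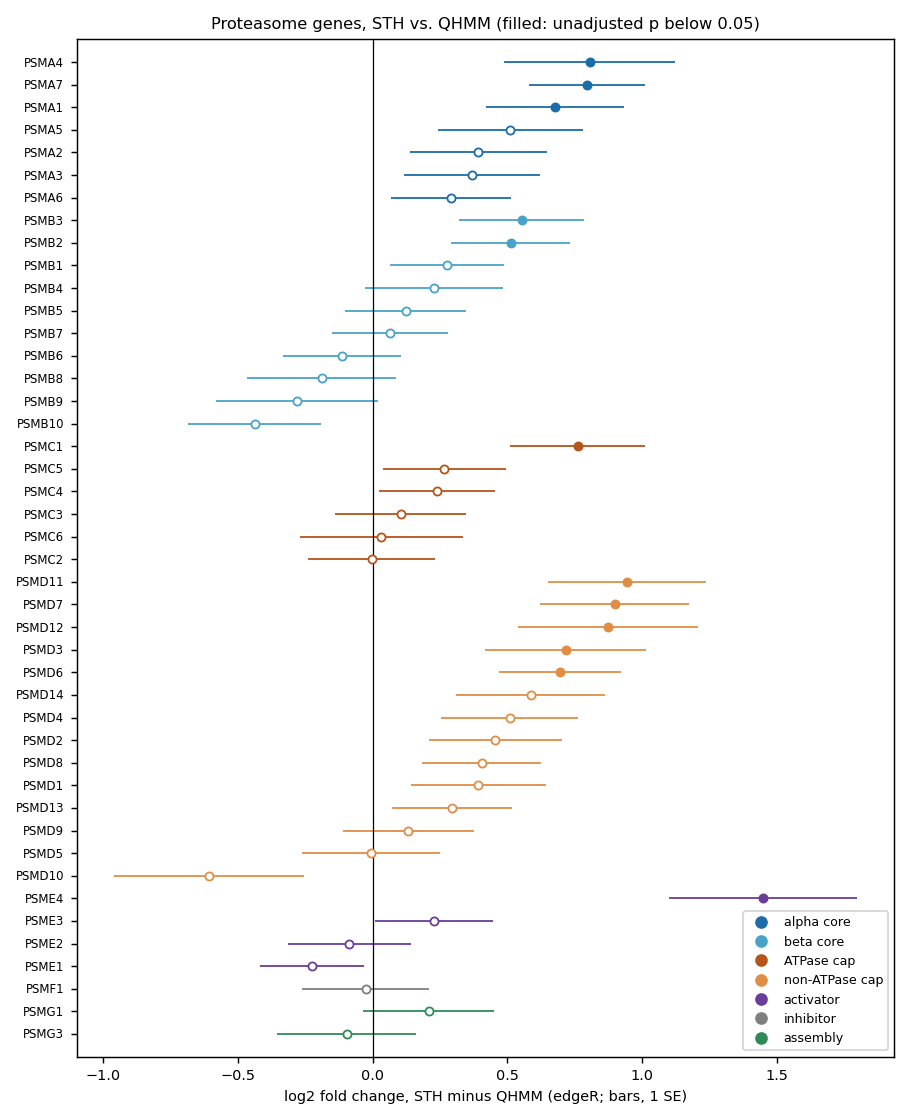
Log2 fold change (STH minus QHMM) of the 44 proteasome genes from edgeR's fit, with bars of 1 SE and filled points for an unadjusted p below 0.05. All 7 alpha subunits and the PSMD genes other than PSMD5 and PSMD10 lie above 0, the 3 inducible beta subunits PSMB8, PSMB9 and PSMB10 lie below 0, and PSME4 has the largest value, 1.45.

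STH replicate 2 carried much of this difference. Of the 6 libraries it also had the fewest counts, 10982191, and the part of depth in its values was not tested. It had the highest normalized count of the 6 libraries for 29 of the 44 genes (65.9%), against 22.8% of all tested genes, and PSMA1 to PSMA7 and all 6 ATPases were among the 29. Relative to the mean of the QHMM libraries, the median of the 44 genes on the log2 scale was 0.52 in STH replicate 2, 0.27 in STH replicate 3 and 0.11 in STH replicate 1, and -0.15, 0.14 and -0.01 in QHMM replicates 1, 2 and 3. By this median STH replicate 1 lay below QHMM replicate 2. Without STH replicate 2, 4 genes (9.09%) had an unadjusted p below 0.05 with higher counts in STH, against 6.04% of all genes tested in that fit, and 1, PSMB10, with lower counts. The median log2 fold change was then 0.14. The 4 higher genes were PSMA7, PSMD7, PSMD11 and PSME4. The same 4 genes were left without QHMM replicate 1, against 7.40% of all genes tested. Without STH replicate 2, 33 of the 44 log2 fold changes were above 0, against 49.8% of all genes tested in that fit.

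**Figure D3:**
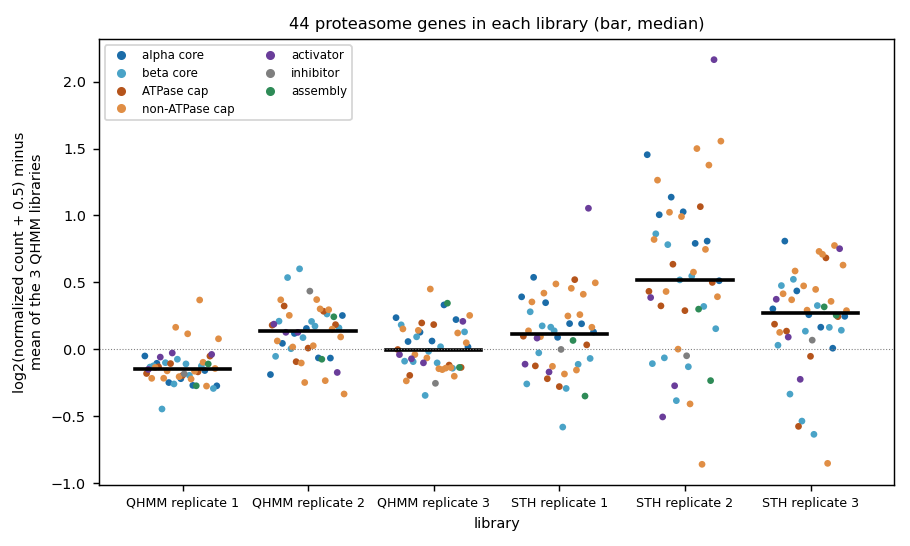
Deviation of the 44 genes from the mean of the 3 QHMM libraries, as log2(normalized count + 0.5), in each library, with 1 point per gene coloured by group and a bar at the median. The medians are -0.15, 0.14 and -0.01 in QHMM and 0.11, 0.52 and 0.27 in STH.

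In the alpha ring, all 7 tested subunits had a log2 fold change above 0, from 0.29 (PSMA6) to 0.81 (PSMA4), with a median of 0.51. PSMA7 had 848, 940.2 and 949 normalized counts in QHMM and 1324, 1830.1 and 1597 in STH. The breeds did not overlap, the QHMM libraries were close to each other, and the lowest STH library was replicate 1. The mean went from 912 ± 56.0 to 1583 ± 254 (SD, n = 3 each), with a log2 fold change of 0.80 (FDR = 0.0714, SE 0.21), which missed the threshold in edgeR and passed it in DESeq2. DESeq2 called more genes in all than edgeR, 956 of 17662 against 432 of 12506. PSMA4, which had the lowest level of the ring, had 209, 189.7 and 255 in QHMM and 284, 593 and 267 in STH. The breeds did not overlap, but STH replicate 2 stood far above the other STH libraries, and the log2 fold change came to 0.81 (FDR = 0.195, SE 0.32). PSMA1 had 429, 554 and 557 in QHMM and 649, 1122 and 690.2 in STH, again without overlap, with a log2 fold change of 0.68 (FDR = 0.180, SE 0.26). PSMA2, PSMA3, PSMA5 and PSMA6 had an FDR between 0.333 and 0.523, and their libraries overlapped. Without STH replicate 2 the median of the ring was 0.16.

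In the beta ring, the 7 constitutive subunits had a median log2 fold change of 0.23, and none was called. The median was 0.03 without STH replicate 2 and 0.12 without QHMM replicate 1, and in neither case did any of them have an unadjusted p below 0.05. PSMB3 had 952, 1200.1 and 976 normalized counts in QHMM and 1260.0, 1887 and 1443 in STH, for a log2 fold change of 0.55 (FDR = 0.222, SE 0.23). PSMB2 had 673, 724 and 769 in QHMM and 814, 1240.4 and 1036 in STH, a log2 fold change of 0.51 (FDR = 0.237, SE 0.22). Both are structural subunits without an active site, and the breeds did not overlap for either or for PSMB1, whose log2 fold change was 0.28.

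The 3 catalytic subunits of the standard core had values near 0. PSMB5, which cleaves after hydrophobic residues, had 1185, 1551 and 1171 normalized counts in QHMM and 1196, 1613 and 1448 in STH. The log2 fold change, 0.12, had a 95% interval of -0.37 to 0.62. PSMB6, the caspase-like subunit, had 2428, 2566 and 3021 in QHMM and 2225, 2471 and 2718 in STH, and PSMB7, the trypsin-like subunit, had 799, 1094 and 1071 and 933, 1089 and 1080.1. The libraries of the breeds overlapped for all 3 genes. The log2 fold change was -0.11 for PSMB6, with an interval of -0.60 to 0.37, and 0.07 for PSMB7, with -0.41 to 0.54. With RPKM in place of TMM-normalized counts the value of PSMB6 changed sign, to 0.003.

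The 3 inducible subunits had log2 fold changes below 0, and none of them passed the test. PSMB8 had 179, 355 and 229 normalized counts in QHMM and 240.1, 234 and 194 in STH. PSMB9 had 344, 624 and 324 in QHMM and 461, 315 and 283 in STH. For both genes QHMM replicate 2 was the highest library, the breeds overlapped, and the log2 fold changes were -0.19 (FDR = 0.761, SE 0.28) and -0.28 (FDR = 0.660, SE 0.30). Without QHMM replicate 2 they were 0.13 and 0.09. PSMB10 had 162, 201 and 162 in QHMM and 116, 159 and 112 in STH, all STH libraries lying below all QHMM libraries, STH replicate 2 only just. The log2 fold change came to -0.44 (FDR = 0.368, SE 0.25). On the RPKM scale the breeds overlapped for PSMB10, with 12.8, 13.4 and 13.1 in QHMM and 10.9, 13.8 and 7.49 in STH.

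Set against the constitutive subunit that it replaces, PSMB8 had 26.3%, 39.8% and 34.1% of the RPKM of PSMB5 in QHMM replicates 1, 2 and 3, while STH had 34.9%, 25.2% and 23.3%. PSMB9 had 18.1%, 31.2% and 13.7% of the RPKM of PSMB6 in QHMM and 26.6%, 16.3% and 13.4% in STH. The breeds overlapped for these 2 ratios. PSMB10 had 20.7%, 18.8% and 15.5% of the RPKM of PSMB7 in QHMM and 12.7%, 14.9% and 10.6% in STH, where the breeds did not overlap. The mean log2 ratio of PSMB10 to PSMB7 differed by -0.53 from QHMM to STH, with an SD between animals of 0.21 in QHMM and 0.25 in STH. These ratios do not depend on how libraries are scaled, and they are given as a description, without a test.

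**Figure D4:**
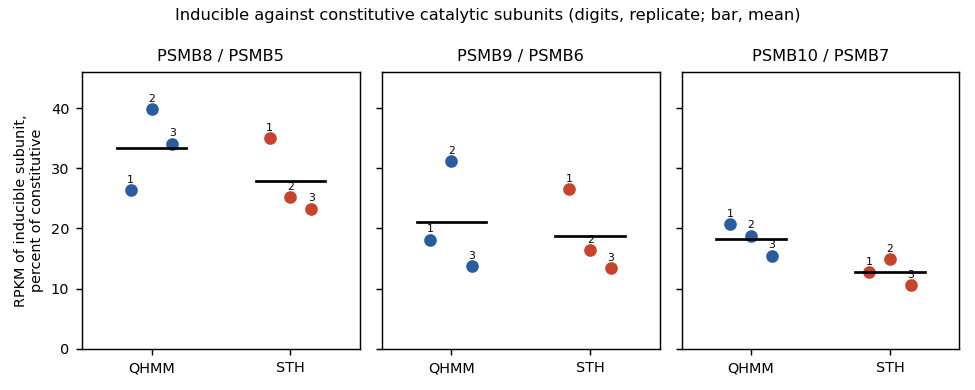
RPKM of each inducible catalytic subunit as a percentage of the constitutive subunit that it replaces, 1 point per library with the replicate number, and a bar at the mean of the breed. The means are 33.4% and 27.8% for PSMB8 over PSMB5, 21.0% and 18.8% for PSMB9 over PSMB6 and 18.3% and 12.8% for PSMB10 over PSMB7, in QHMM and STH.

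Genes of interferon signalling and antigen presentation, and leukocyte markers, were measured beside these subunits. Of 13 tested genes of the first list, 2 had a log2 fold change above 0, against 51.8% of all tested genes, with a median of -0.52, and 4 had an unadjusted p below 0.05 with lower counts in STH, against 9.72%. With 1 library left out, between 2 and 7 did. Their summed RPKM was 825 to 1089 in QHMM and 673 to 1272 in STH. B2M, with a log2 fold change of 0.07, made up most of it, with a mean of 778 of 938 RPKM in QHMM and 920 of 1044 in STH. TAP1, the peptide transporter gene that lies between PSMB8 and PSMB9 in the RefSeq annotation of the sheep assembly ARS-UI_Ramb_v3.0, had 584, 1236 and 576 normalized counts in QHMM and 559, 437 and 365 in STH, the highest value being that of QHMM replicate 2, as for PSMB8 and PSMB9. IRF1, an interferon-responsive transcription factor, had a log2 fold change of -1.39 (FDR = 0.0913, SE 0.41). Of 11 tested leukocyte markers, 2 had a log2 fold change above 0, with a median of -0.74, and 4 had an unadjusted p below 0.05 with lower counts in STH, or between 2 and 6 with 1 library left out. The summed RPKM of the 14 leukocyte markers was 71.1 to 97.6 in QHMM and 52.2 to 96.1 in STH. None was at 0 in all libraries, but MS4A1, a B cell marker, had at most 2 reads in each library. Their part in the values of the inducible subunits was not tested.

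The ATPase ring of the cap had a median log2 fold change of 0.17 over its 6 genes, which was 0.05 without STH replicate 2 and 0.07 without QHMM replicate 1. PSMC1 had 2778, 3802 and 2877 normalized counts in QHMM and 4477, 6533 and 5012 in STH, without overlap. Its mean went from 3152 ± 565 to 5341 ± 1067 (SD, n = 3 each), and the log2 fold change, 0.76 (FDR = 0.128, SE 0.25), missed the threshold. On the RPKM scale PSMC1 had 161 ± 11.6 in QHMM and 302 ± 79.7 in STH. The other 5 ATPases had log2 fold changes from -0.003 (PSMC2) to 0.27 (PSMC5), with an FDR of at least 0.575. PSMC6, the ATPase with the lowest level, had 303, 306 and 374 normalized counts in QHMM and 279.7, 506 and 218 in STH, and the log2 fold change, 0.03 (95% interval -0.63 to 0.70), was -0.41 without STH replicate 2.

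The lid had a larger median difference than the ATPase ring or the base. All 8 of its tested PSMD subunits had a log2 fold change above 0, from 0.29 (PSMD13) to 0.94 (PSMD11), with a median of 0.71, and 5 of them had an unadjusted p below 0.05, against 9.43% of all tested genes with higher counts in STH. The split of the PSMD genes into lid, base and base chaperones was made after their values were seen, and edgeR called no gene of the lid. PSMD11, a scaffold subunit of the lid, had 678, 937 and 689 normalized counts in QHMM and 1042, 2148 and 1243 in STH. Its mean went from 768 ± 146 to 1478 ± 589 (SD, n = 3 each), with a log2 fold change of 0.94 (FDR = 0.110, SE 0.29). PSMD7, the partner of the deubiquitinase PSMD14, had 787, 1057 and 1036 in QHMM and 1267, 2472 and 1630.2 in STH, a log2 fold change of 0.90 (FDR = 0.106, SE 0.28). For PSMD7 and PSMD11 the breeds did not overlap, and STH replicate 2 was the highest library by a wide margin. DESeq2, in place of edgeR, called both, among 956 of 17662 genes in all. PSMD6 had 507, 574 and 625 in QHMM and 758, 1153 and 850.4 in STH, also without overlap, with a log2 fold change of 0.69 (FDR = 0.122, SE 0.23). PSMD12 had 240.1, 180.3 and 271 in QHMM and 321, 669 and 278 in STH, where STH replicate 3 exceeded QHMM replicate 3 by little, and the log2 fold change came to 0.87 (FDR = 0.185, SE 0.33). PSMD3 had 1475, 2095 and 1376 in QHMM and 2072, 3892 and 2161 in STH, so that QHMM replicate 2 and STH replicate 1 overlapped, with 0.72 (FDR = 0.222, SE 0.30). The deubiquitinase PSMD14 itself had a log2 fold change of 0.59 (FDR = 0.282, SE 0.28). Without STH replicate 2 the median of the lid was 0.38, with all 8 values above 0, against 49.8% of all genes tested in that fit. In it 2 of the 8 had an unadjusted p below 0.05 with higher counts in STH, against 6.04% of all genes tested. Without QHMM replicate 1 it was also 2 of the 8, against 7.40%.

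**Figure D5:**
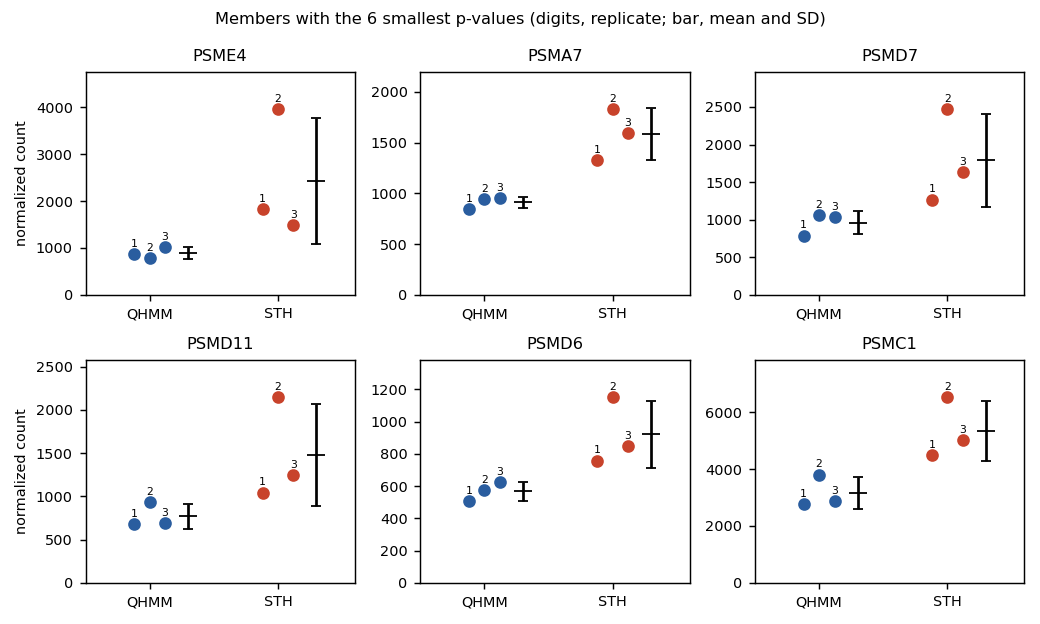
Normalized counts of the 6 members with the smallest p-values, with 1 point per library marked by its replicate number and the mean and SD beside each breed. The breeds do not overlap in any of the 6, and STH replicate 2 is the highest library in each, up to 6533 for PSMC1.

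The base subunits PSMD1, PSMD2 and PSMD4 had log2 fold changes of 0.39, 0.46 and 0.51, with an FDR of 0.305 to 0.433. PSMD4 had 2056, 3101 and 2158 normalized counts in QHMM and 2849, 3575 and 3979.8 in STH, and QHMM replicate 2 lay above STH replicate 1. The 3 chaperones of base assembly had values from -0.61 to 0.13. PSMD5 and PSMD9 had log2 fold changes of -0.006 (95% interval -0.57 to 0.56) and 0.13 (-0.40 to 0.67). PSMD10, also known as the oncoprotein gankyrin, had 60.7, 39.8 and 42.6 normalized counts in QHMM and 42.1, 25.6 and 25.8 in STH, a log2 fold change of -0.61 (FDR = 0.385, SE 0.35). The breeds overlapped, and the counts were the lowest of the 44 genes. The difference between the chaperones and the lid was not tested.

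Beside PSME4, the activators had small differences. PSME1 and PSME2 encode the subunits of the interferon-inducible activator ring. PSME1 had 629, 700.1 and 598 normalized counts in QHMM and 570.2, 531 and 549 in STH, all STH libraries lying below all QHMM libraries, for a log2 fold change of -0.22 (95% interval -0.65 to 0.20, FDR = 0.575). On the RPKM scale its breeds overlapped, with 42.2 ± 1.38 in QHMM and 39.6 ± 7.34 in STH. PSME2 had 369, 419 and 365 in QHMM and 407, 270.3 and 409 in STH, a log2 fold change of -0.09 (-0.59 to 0.42), which changed sign on the RPKM scale, to 0.006. PSME3, the nuclear activator, had 495, 626 and 535 in QHMM and 509, 719 and 713 in STH, a log2 fold change of 0.23 (-0.26 to 0.71). On the RPKM scale PSME4 had 9.48 ± 2.11 in QHMM and 28.7 ± 17.5 in STH, the lowest mean of the 4 activators in QHMM but not in STH, where PSME2 was lower with 20.6. PSMF1, an inhibitor of the core in the test tube, had 947, 1453 and 901 normalized counts in QHMM and 1074, 1039.5 and 1127 in STH. QHMM replicate 2 was the highest, and the log2 fold change of -0.03 (-0.55 to 0.50) took both signs across normalizations.

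PSMG1 and PSMG3, the only PSMG genes found in the deposited gene table, had low levels and overlapping libraries. PSMG1 had 143, 164 and 219 normalized counts in QHMM and 181, 213 and 215 in STH, for a log2 fold change of 0.21 (95% interval -0.33 to 0.74). PSMG3 had 137, 176 and 135 in QHMM and 116, 126 and 177 in STH, a log2 fold change of -0.10 (-0.67 to 0.47), a value that was 0.005 on the RPKM scale. POMP, which guides beta ring assembly, had 175, 156 and 156 in QHMM and 197, 203 and 184 in STH, for a log2 fold change of 0.26 (FDR = 0.557, SE 0.21) and no overlap between the breeds.

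POMP belongs to a list of 28 symbols for partner genes of the proteasome, of which 23 were tested. SEM1 and ECPAS were tested under their older symbols SHFM1 and KIAA0368, and the rest were not analysed here. In this list 14 had a log2 fold change above 0, with a median of 0.22, which was 0.07 without STH replicate 2. edgeR called 1, against 3.45% of all tested genes, and 3 had an unadjusted p below 0.05 with higher counts in STH and 1 with lower counts, against 9.43% and 9.72%. These counts are close to the background. The called gene was ZFAND5, a zinc finger protein that stimulates the proteasome and is known from muscle atrophy. It rose from 1142, 1561 and 1199.8 normalized counts in QHMM to 2829, 6081 and 3646 in STH, for a log2 fold change of 1.69 (FDR = 0.0193, SE 0.31). Every STH library lay above every QHMM library, and as for PSME4 the highest was STH replicate 2. No partner gene was called without QHMM replicate 1, without QHMM replicate 3, or by limma-trend on unfiltered RPKM. TXNL1, a thioredoxin-like protein bound to the cap, had 352, 365 and 441 in QHMM and 464, 857 and 541 in STH, a log2 fold change of 0.69 (FDR = 0.180, SE 0.26). ADRM1, a ubiquitin receptor of the base, had 0.60 (FDR = 0.233, SE 0.26). NGLY1, the glycanase that processes the transcription factor NFE2L1, had 368, 339.5 and 382 in QHMM and 243, 259 and 282 in STH, a log2 fold change of -0.47 (FDR = 0.226, SE 0.20). NFE2L1 itself, which drives proteasome genes when the proteasome is impaired, had 4712, 8812 and 8022 in QHMM and 8362, 12800.2 and 10876 in STH, where libraries overlapped, for a log2 fold change of 0.57 (FDR = 0.324, SE 0.30). NFE2L1 and POMP did not pass the test, and like PSMB1 and PSMD14 they were singled out once their values were known.

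Genes of slow muscle fibres differed between the same libraries. All 5 slow-fibre genes in the table had lower counts in STH with an unadjusted p below 0.05, against 9.72% of all tested genes, and edgeR called 3 of them (OMYHCS, MYL2 and TNNT1), against 1.83%. The number called was 0 without QHMM replicate 1, 2 or 3, 1 without STH replicate 2 and 2 without STH replicate 1 or 3, while all 5 had an unadjusted p below 0.05 in each of these. Their summed RPKM was 19832, 15606 and 22234 in QHMM and 7331, 10437 and 6877 in STH. The 3 tested fast-fibre genes had log2 fold changes between -0.34 and -0.22 with overlapping libraries. The median log2 fold change was -0.46 over 3 fibroblast markers, 1 of which had an unadjusted p below 0.05, and 0.04 over 3 endothelial markers. The part of these differences in the values of the proteasome genes was not tested.

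The median coefficient of variation of the 44 genes, the SD as a percentage of the mean, was 14.2% in QHMM and 20.9% in STH, against 20.7% and 23.9% over all tested genes. The latter were not matched to the 44 by level, and their mean RPKM went down to 0.058, against 3.53 among the 44. In the alpha ring it was 14.2% and 30.6%, and in the lid 17.9% and 30.3%. The inducible beta subunits had 35.5% in QHMM and 20.2% in STH. For PSME4 it was 13.6% and 55.1%. The log2 fold change of the 44 genes had a Spearman's rho of 0.222 with the mean RPKM and of 0.336 with gene length, as derived from each gene's ratio of counts to RPKM, as a description across genes. The implied length of PSME4 was 7045 bases, the longest of the 44.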

How the data were processed

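The deposited counts are raw reads per gene from Ion Proton sequencing, which the authors took from quality-filtered reads with a single match in the Oar 3.1 assembly of the sheep. The deposited RPKM values are the same reads scaled by gene length and library total. The aligner, counter and annotation release are not given in the sources used here. Unique mapping can leave out reads shared with processed pseudogenes, which many proteasome genes have. All 12 per-sample columns were used.

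Members were found by symbol, and the members, gene lists and groups were chosen with earlier results of these data known. Counts were tested in R 4.3.3 with edgeR 4.0.16 (TMM, filterByExpr on breed, glmQLFit, glmQLFTest, breed as the only term), and FDR was adjusted by Benjamini-Hochberg over 12506 genes. A call needed an FDR below 0.05 and a change above 1.5-fold, as in the study's methods, whose tool EBSeq was not run. SE was obtained from the F statistic, and 95% intervals from its degrees of freedom. Normalized counts are counts divided by the effective library size and multiplied by its mean. P-values rest on the spread between 3 animals per breed, which edgeR moderates for each gene with the spread of the other tested genes. Depth per library was 10982191 to 14334544 counts. Alternatives used DESeq2 1.42.0 and limma 3.58.1. The main edgeR fit, edgeR with the replicate block, DESeq2 and limma-trend were checked on simulated counts, for limma-trend scaled to the library total only. The other settings were not checked in this way. Values are given for members with an unadjusted p below 0.05, the catalytic pairs, the activators, PSMF1 and the highest and lowest member of each group by mean RPKM. The planned sequence comparisons of proteins and promoters were not made here. Python 3.11.15, pandas 2.3.3 and matplotlib 3.10.9 made the tables and plots.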

Additional observations from a re-analysis of the deposited data

How the results depend on the processing

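The count of called members was 1 and rested on PSME4. It was 0 with upper-quartile normalization, without the 20 most abundant genes, with limma-trend on log2(RPKM + 1) of all genes with a value above 0, and at an FDR below 0.01. It was 4 with DESeq2 (PSMA7, PSMD7, PSMD11 and PSME4), which called 956 of 17662 genes in all, where edgeR called 432 of 12506. With 1 library left out of the edgeR fit, the count of called members was 1 without STH replicate 1 or 3. It was 0 without STH replicate 2 or QHMM replicate 1, 2 or 3. The log2 fold change of PSME4 stayed above 0 in all 15 other settings, from 0.88 to 1.71. Limma-trend on log2(RPKM + 1) and on log2(RPKM + 0.1), after a filter that needs 3 libraries to reach an RPKM of 1, called PSMA7 only. It moved the median of all genes to 0.12 and 0.14, and the members lay 0.27 and 0.25 above it, against 0.26 in the edgeR fit. With 1 library left out, 4 to 13 members had an unadjusted p below 0.05 with higher counts in STH. It was 4 (9.09%) without QHMM replicate 1 or STH replicate 2, against 7.40% and 6.04% of all genes tested. It was 13 (29.5%) without STH replicate 1, against 9.43%. With lower counts in STH it was PSMD10 alone without STH replicate 1, and PSMB10 alone without STH replicate 2. The median log2 fold change of the alpha ring lay between 0.16 and 0.67 with 1 library left out.

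The labels give both breeds the replicate numbers 1 to 3. The deviations of same-numbered libraries from their breed means correlated at 0.226, -0.0380 and -0.130. With 3 libraries per breed, such values cannot show whether the numbers pair the animals. QHMM replicates 2 and 3 correlated best with another number. With the replicate number as a block, 0 members were called, where 457 of 12506 genes were called in all. In that fit 9 members (20.5%) had an unadjusted p below 0.05 with higher counts in STH, against 8.16% of all tested genes. PSMF1 then had a log2 fold change of 0.008 and PSMC6 of -0.051.

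Of 405 values of 27 named members in other settings, 24 changed sign, all of genes that were not called. On log2(RPKM + 1), filtered or not, PSMB6 had 0.003, PSME2 0.006, PSMF1 0.119 and PSMG3 0.005, and on log2(RPKM + 0.1) they had 0.004, 0.005, 0.121 and 0.005. With 1 library left out, PSMB8 ranged from -0.412 to 0.128, PSMB9 from -0.538 to 0.087, PSMB7 from -0.088 to 0.149, PSME2 from -0.193 to 0.069, PSMF1 from -0.149 to 0.229, PSMC6 from -0.410 to 0.266 and PSMG3 from -0.298 to 0.039. The cause of these changes was not tested. The log2 ratio of PSMB9 to PSMB6 (-0.14) was 0.19 without QHMM replicate 2 and 0.07 without STH replicate 3. PSMA8 and PSMB11 had fewer than 3 counts in every library, and no fold is given for them.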

Other observations

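In the RefSeq annotation of ARS-UI_Ramb_v3.0, where all 46 members were matched by symbol, 1 gene separates PSME1 from PSME2, 1 other gene separates PSMB11 from PSMB5, and 9 genes separate PSMD4 from PSMB4. PSMB5 had a mean of 76.7 RPKM where PSMB11 had a single read in 6 libraries. PSME1 and PSME2, the partners in 1 ring, had mean levels of 40.9 and 20.4 RPKM. PSMD4 and PSMB4 had log2 fold changes of 0.51 and 0.23, neither past the threshold.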
